A study of Mus musculus with 6 samples.

Results

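Isoform choice was followed in 6 genes that encode enzymes of amino acid and one-carbon metabolism, Shmt1, Glyctk, Cdo1, Bcat2, Gpt and Aasdh, in mouse duodenal organoids exposed to BMP2. They were taken by name from the authors' deposited table of isoforms whose usage differed between BMP2 and vehicle, and they account for 9 of its 302 isoforms and 6 of its 202 genes. The organoids were grown from wild-type C57BL/6 duodenal crypts and received either vehicle or BMP2 at 100 ng/ml on day 6 for 24 h. Each condition has 3 libraries, 6 in all, and every value below is the authors' mean or comparison for a condition, so none carries a replicate error and depth per library is unknown. The labels do not say whether the libraries came from separate cultures or animals, so the authors' q-values may measure technical spread only. Organoids of this kind hold epithelium without the other tissues of the gut wall. Of the 12 epithelial markers and 7 markers of other cell types listed for a check of that identity, 0 and 0 have an entry in the table, so the label was not checked.

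The enzymes move nitrogen, sulfur and single carbons between amino acids and central metabolism. Serine hydroxymethyltransferases split serine into glycine and a one-carbon unit carried on folate, which feeds nucleotide synthesis. Aminotransferases such as those encoded by Bcat2 and Gpt pass the amino group of an amino acid to 2-oxoglutarate, and the small intestine is a site where dietary amino acids are first metabolised. BMP signalling is strongest toward the villus tip, where enterocytes are mature, and weakest at the crypt base, where cells divide.

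The members were chosen on the values of this same contrast. The authors' q-value and the difference in usage helped to put an isoform in the table. These values are therefore given as a description and support nothing by themselves. Abundance may have had a part as well. The lowest mean over both conditions among the 302 isoforms was 1.005 TPM (defined below), and ranks run to 380 with 78 absent. The filters are not stated, so an isoform not listed may still have passed on q and usage difference. Usage here means the percentage of all transcripts of a gene that come from 1 isoform. All 302 isoforms of the table (100%) lie past a q of 0.05 and a usage difference of 0.1, and so do all 9 described here. Nearest to these limits were Gpt-203, with q = 0.0131 and a difference of -17.9 percentage points in the authors' deposited table, and Cdo1-201, with -18.0 points. In abundance, Aasdh-202 was the lowest of the 9, with a mean over both conditions of 1.09 TPM, near the lowest of the table. Isoforms absent from the table were not analysed here. With BMP2, usage was higher for 4 of the 9 isoforms, against 45% in the whole table, and lower for 5, against 55%. The median absolute difference was 25.6 percentage points for the 9 isoforms and 20.15 points for all 302.

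**Figure D1:**
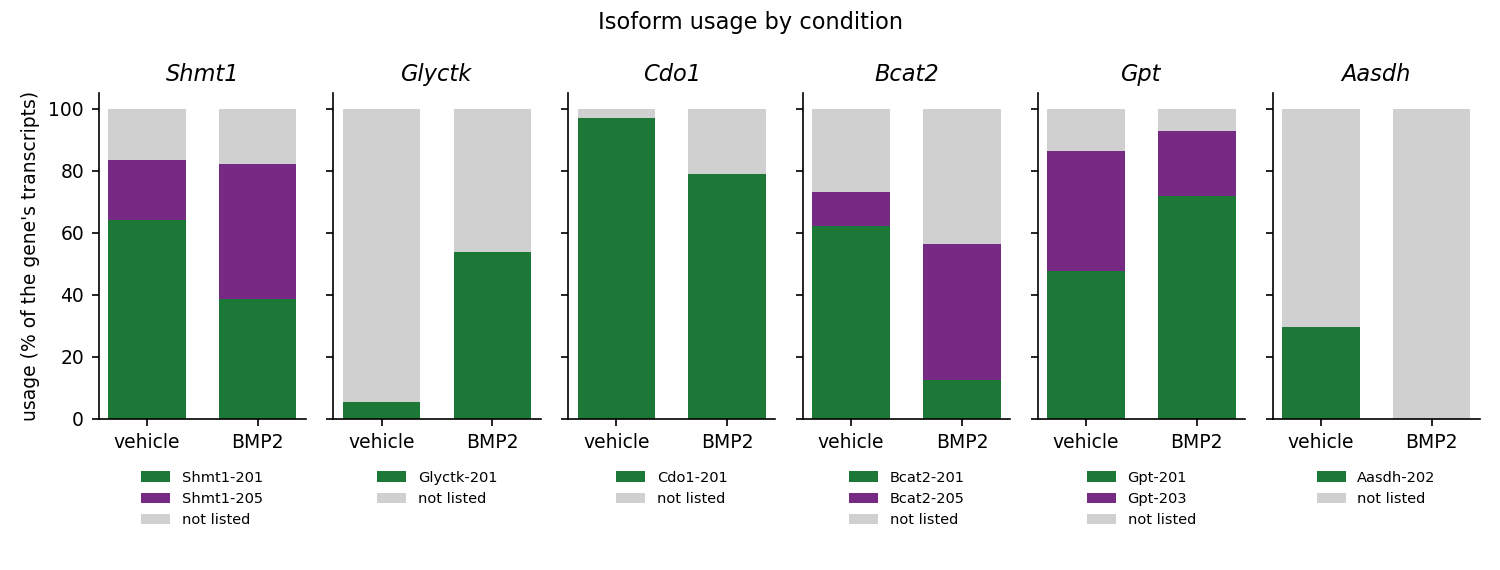
Usage of each listed isoform in vehicle and BMP2, as a percent of the gene's transcripts, in the authors' deposited fractions; grey is the share of isoforms not listed. The leading listed isoform changes between conditions in Shmt1 (Shmt1-201 to Shmt1-205) and Bcat2 (Bcat2-201 to Bcat2-205), Glyctk-201 goes from 5.2% to 53.8%, and Aasdh-202 reaches a listed 0 in BMP2.

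The 6 genes differed in how their overall level compared between conditions. A gene's level was derived by dividing the mean abundance of its listed isoforms, in TPM (transcript counts scaled to the total of all transcripts), by their summed usage. It was over 2-fold lower in BMP2 for 2 of the 5 genes with a value, Shmt1 and Cdo1, against 31.8% of the 195 genes of the table with a value. It was over 2-fold higher for Gpt and Glyctk, 2 of 5 against 11.3%. For Glyctk the ratio was 2.28, near that limit, and its vehicle level of 2.84 TPM rests on 1 isoform at a fraction of 0.052. Bcat2 had nearly the same level in both conditions, and no level could be derived for Aasdh in BMP2, where its only listed isoform is at a fraction of 0. In these bulk libraries, fewer cells of a type and less RNA per cell cannot be told apart.

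**Figure D2:**
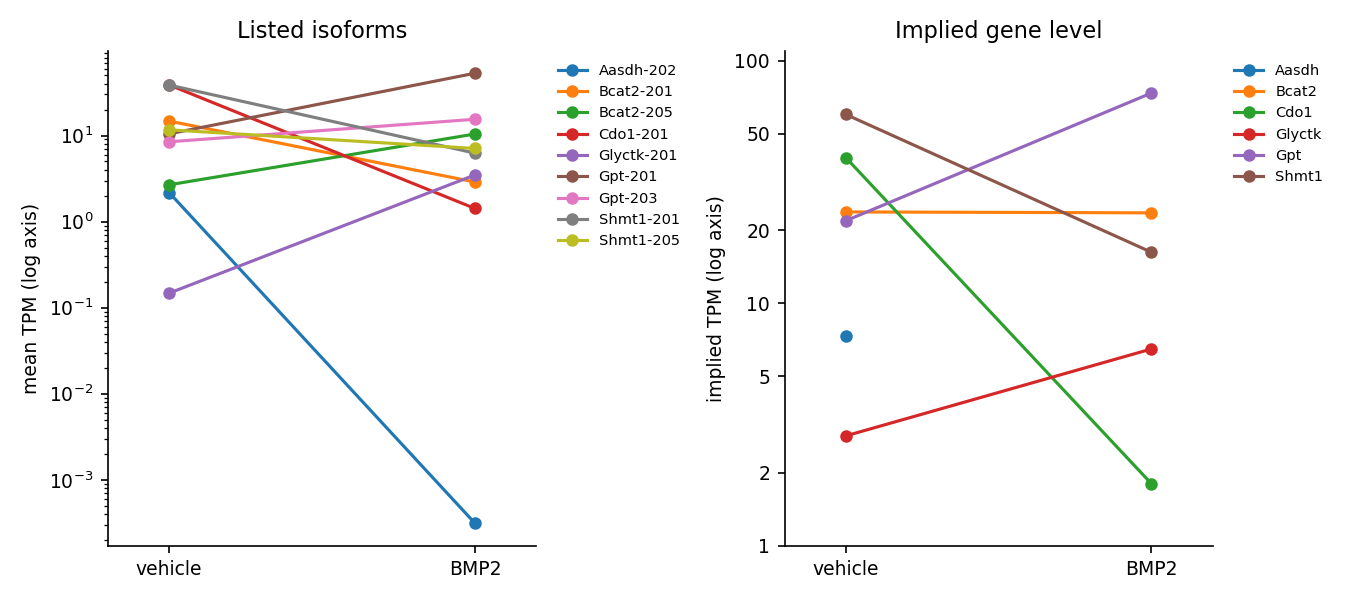
Left, mean TPM of the 9 listed isoforms in vehicle and BMP2 (authors' means, log axis); right, the implied gene level in TPM (log axis), with Aasdh in vehicle only. Levels go from 60.1 to 16.2 TPM for Shmt1 and from 39.9 to 1.80 TPM for Cdo1, and from 21.9 to 73.6 TPM for Gpt, while the line of Bcat2 is flat.

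Shmt1 encodes the cytosolic serine hydroxymethyltransferase, the enzyme that makes one-carbon units from serine outside the mitochondria. The gene lies on chromosome 11 from 60788104 to 60811718 on the minus strand (GRCm38), and GENCODE M21 holds 11 isoforms of it. In the authors' deposited table, the full-length coding isoform Shmt1-201 fell from 64.2% of all Shmt1 transcripts to 38.6% with BMP2 (q = 1.29e-10). The short non-coding isoform Shmt1-205, annotated as retaining an intron, rose from 19.4% to 43.6% (authors' deposited table, q = 8.13e-20) and so became the more used of the pair. Isoforms not listed held 16.4% in vehicle and 17.8% in BMP2, so no other isoform could have ranked above either.

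Both Shmt1 isoforms were nevertheless less abundant with BMP2. Shmt1-201 averaged 38.6 TPM without and 6.25 TPM with BMP2, a 6.17-fold lower value. That of Shmt1-205 was 11.7 and 7.08 TPM, a 1.65-fold lower value, so its gain in share went with a loss in abundance. The same combination of higher usage and lower abundance was found in 1 of the 4 isoforms with higher usage here and in 30 of the 136 in the whole table. The implied level of Shmt1 was 60.1 TPM without and 16.2 TPM with BMP2, and Shmt1-201 accounts for 73.7% of that difference.

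Shmt1-205 is an inner piece of the gene and shares most of its sequence with Shmt1-201. It has 582 bases in 5 exons, against 2858 bases in 12 exons for Shmt1-201, and 537 of its bases and all 4 of its introns are shared with the longer model. What sets it apart is its beginning. Its first exon is exon 8 of Shmt1-201 with 45 bases of the preceding intron added in front, and no other annotated Shmt1 isoform holds these bases. They are shown in capitals, 5′ to 3′, followed by the first bases of the shared coding exon (chr11:60794923-60794997, minus strand, GRCm38, from the GENCODE M21 transcript).
Shmt1-205 start: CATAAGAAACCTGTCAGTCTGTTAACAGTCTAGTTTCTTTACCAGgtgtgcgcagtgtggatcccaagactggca
The capitals end in AG, the last letters of the intron that Shmt1-201 removes. TPM counts a transcript once whatever its length. Weighted by annotated length, Shmt1-205 made up 5.80% of the 2 listed isoforms in vehicle and 18.7% in BMP2, so on that scale its share was again higher in BMP2 but Shmt1-201 stayed the larger of the pair. In Shmt1-201, 184 bases (6.44%) overlap exons of Smcr8 on the opposite strand. Whether reads were counted by strand is not stated in the labels, so its values are uncertain to that extent. Shmt1-205 overlaps no other gene.

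Glyctk encodes glycerate kinase, which phosphorylates the glycerate left by serine and fructose breakdown. The gene lies on chromosome 9 from 106152857 to 106158138 on the minus strand (GRCm38), with 5 annotated isoforms. Its single listed isoform, Glyctk-201, had a usage of 5.2% in vehicle and 53.8% in BMP2 in the authors' deposited table, with q = 2.32e-11. It averaged 0.148 TPM without and 3.48 TPM with BMP2. Its mean over both conditions, 1.82 TPM, thus comes mostly from BMP2, and the lowest such mean in the table was 1.005 TPM. The part of selection by abundance in this contrast was not tested. The level of the gene was low in both conditions, at 2.84 and 6.48 TPM, and Glyctk-201 accounts for 91.7% of that difference. The isoforms not listed together made up 2.69 TPM without and 2.99 TPM with BMP2.

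Glyctk-201 and the unlisted Glyctk-202 have the same coding sequence of 1569 bases and differ outside it. Glyctk-201 keeps an intron of 136 bases in front of the start codon that Glyctk-202 removes (106157905 to 106158040, 0 of them coding). Its boundaries are shown, with intron bases in capitals and exon bases in lower case (GENCODE M21, minus strand, GRCm38, chr9:106158021-106158050 and chr9:106157895-106157924).
Glyctk-201 intron start: gtaagatcagGTTTGCTGCAGGCTTCATGA
Glyctk-201 intron end: TCCTTCTCCTCCCTCTCTAGgcagctatgg
The kept intron begins with GT and ends with AG. Of the 148 bases that Glyctk-201 has and Glyctk-202 lacks, 107 are in no other annotated Glyctk isoform. Exons of D030055H07Rik on the opposite strand cover 51.9% of Glyctk-201, so its abundance is uncertain. The part of that overlap in the result was not tested.

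Cdo1 encodes cysteine dioxygenase, which commits cysteine to oxidation toward taurine and sulfate. The gene lies on chromosome 18 from 46713193 to 46728395 on the minus strand (GRCm38), with 5 annotated isoforms. Usage of Cdo1-201, the 5-exon coding isoform, was 97.1% in vehicle and 79.0% in BMP2 in the authors' deposited table, with q = 1.18e-06. Here the change in share was small beside that in abundance. Cdo1-201 averaged 38.7 TPM without and 1.42 TPM with BMP2, a 27.2-fold lower value. The implied gene level in BMP2 was 1.80 TPM, so this fold and the usage of 79.0% there rest on a low value. The isoforms not listed together made up 1.16 TPM without and 0.378 TPM with BMP2. As derived, they too were lower, while their share was 2.9% in vehicle and 21.0% in BMP2. That lower value is uncertain, since it rests on the implied gene level. For Bcat2 such levels were 3.82% apart in vehicle, more than the 2.9% here, and Cdo1 with 1 listed isoform allows no check. Cdo1-201 accounts for 98.0% of the difference in gene level. Its exons overlap no other annotated gene.

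Bcat2 encodes the mitochondrial branched-chain aminotransferase, which takes the amino group from leucine, isoleucine and valine. It lies on chromosome 7 from 45570153 to 45589711 on the plus strand (GRCm38), with 8 annotated isoforms. It was the 1 gene of the 5 whose listed isoforms changed places at nearly the same level, 23.8 TPM without and 23.6 TPM with BMP2. In the authors' deposited table the coding Bcat2-201 fell from 62.2% to 12.6% (q = 2.14e-05), and the non-coding Bcat2-205 rose from 10.9% to 43.8% (q = 6.87e-05). In abundance, Bcat2-201 averaged 14.7 TPM without and 2.89 TPM with BMP2, and Bcat2-205 averaged 2.68 and 10.4 TPM. The isoforms not listed made up the rest, 6.40 TPM without and 10.3 TPM with BMP2. They include coding models such as Bcat2-202, with 11 exons and 1164 coding bases, against 1179 coding bases in Bcat2-201. How much each of them held was not analysed here. Their joint share in vehicle was 26.9%. Their joint share in BMP2, 43.6%, lies just under that of Bcat2-205, so Bcat2-205 was the most used isoform of the gene there in these means.

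Bcat2-205 has 632 bases in 4 exons and no coding sequence, against 1772 bases in 11 exons for Bcat2-201, and 423 of its bases and all 3 of its introns are shared. As in Shmt1-205, its first exon is an inner exon of the long model, exon 2, with intron bases added in front. There are 209 of them, in capitals below, and no other annotated Bcat2 isoform holds them (chr7:45575222-45575460, plus strand, GRCm38, from the GENCODE M21 transcript). The lower-case bases open the coding exon that both share.
Bcat2-205 start: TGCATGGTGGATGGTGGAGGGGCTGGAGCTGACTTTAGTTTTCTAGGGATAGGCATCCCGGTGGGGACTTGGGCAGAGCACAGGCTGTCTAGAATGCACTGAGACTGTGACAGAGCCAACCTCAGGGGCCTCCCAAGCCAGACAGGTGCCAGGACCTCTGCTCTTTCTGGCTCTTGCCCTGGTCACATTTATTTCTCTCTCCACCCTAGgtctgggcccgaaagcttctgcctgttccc
Weighted by annotated length, Bcat2-205 made up 6.09% of the listed pair in vehicle and 56.3% in BMP2, so the exchange of rank held on that scale as well, unlike in Shmt1. Exons of 0610005C13Rik on the opposite strand overlap 247 bases of Bcat2-201 and 106 bases of Bcat2-205, which leaves these values uncertain to that extent.

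Gpt encodes the cytosolic alanine aminotransferase, which interconverts alanine and pyruvate. The gene lies on chromosome 15 from 76695716 to 76699686 on the plus strand (GRCm38), with 10 annotated isoforms. Both listed isoforms are coding, and here the longer model gained. In the authors' deposited table Gpt-201 rose from 47.7% to 71.9% of all Gpt transcripts (q = 0.0110), and the shorter Gpt-203 fell from 38.8% to 21.0% (q = 0.0131). Gpt-201 was the most used listed isoform in both conditions. Isoforms not listed held 13.5% in vehicle and 7.1% in BMP2. Among them, Gpt-205 has an annotated coding length of 1488 bases, the same as Gpt-201. Whether the 2 coding sequences are identical was not checked.

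Both Gpt isoforms were more abundant with BMP2, in contrast to the Shmt1 pair. Gpt-201 averaged 10.5 TPM without and 53.0 TPM with BMP2, a 5.06-fold higher value. That of Gpt-203 was 8.46 and 15.5 TPM, a 1.83-fold higher value, so its share was lower while its abundance was higher. The same was found in 33 of the 166 isoforms of the table with lower usage. The level of Gpt was 21.9 TPM without and 73.6 TPM with BMP2, and Gpt-201 accounts for 82.1% of the difference.

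Gpt-203 starts inside the gene, and its annotated protein is the C-terminal part of that of Gpt-201 with a short beginning of its own. Its coding sequence has 768 bases, of which 749 are shared with Gpt-201 in the same reading frame, 50.3% of the 1488 coding bases of Gpt-201. The other 19 coding bases come from the intron before exon 6 of Gpt-201 and are in capitals below, ahead of exon 6 in lower case (chr15:76698284-76698382, plus strand, GRCm38, from the GENCODE M21 transcript).
Gpt-203 coding start: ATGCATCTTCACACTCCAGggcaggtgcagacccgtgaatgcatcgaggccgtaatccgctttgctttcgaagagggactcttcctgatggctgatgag
The run opens with the ATG of Gpt-203 and the capitals end in AG. In all, 92 bases of Gpt-203 are absent from Gpt-201, and the unlisted Gpt-209, annotated as retaining an intron, contains all 92. Weighted by annotated length, Gpt-203 made up 30.7% of the listed pair in vehicle and 13.8% in BMP2. Neither isoform overlaps another annotated gene.

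Aasdh encodes a member of the acyl-CoA synthetase family named after the aminoadipate-semialdehyde dehydrogenase of lysine breakdown. It lies on chromosome 5 from 76873659 to 76905514 on the minus strand (GRCm38), with 15 annotated isoforms. In the authors' deposited table the coding isoform Aasdh-202 fell from 29.6% of all Aasdh transcripts to a listed 0 with BMP2 (q = 1.5e-05). It averaged 2.17 TPM without and 0.000313 TPM with BMP2. The second value is an estimate close to 0, and no fold is given. The mean over both conditions, 1.09 TPM, comes almost wholly from vehicle and lies near the lowest of the table, 1.005 TPM. The part of selection by abundance in this contrast was not tested. The level of the gene was 7.34 TPM in vehicle, of which 5.17 TPM belonged to isoforms not listed. Those isoforms made up all of the gene's transcripts in BMP2, at a level that was not analysed here.

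Aasdh-202 and the unlisted Aasdh-201 have the same coding sequence of 3300 bases. They differ outside it. The first base of Aasdh-202 lies 3327 bases upstream of that of Aasdh-201, and 2 non-coding exons precede the shared coding exons. Of the 315 bases that Aasdh-202 has and Aasdh-201 lacks, all but 1 also occur in other annotated Aasdh isoforms, 10 of which hold some of them. Aasdh-202 overlaps no other gene. Aasdh-202 and Glyctk-201 thus each have an unlisted partner with the same annotated protein, and whether that partner gained or lost usage was not analysed here. Such a partner was not looked for in the genes with 2 listed isoforms.

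**Figure D3:**
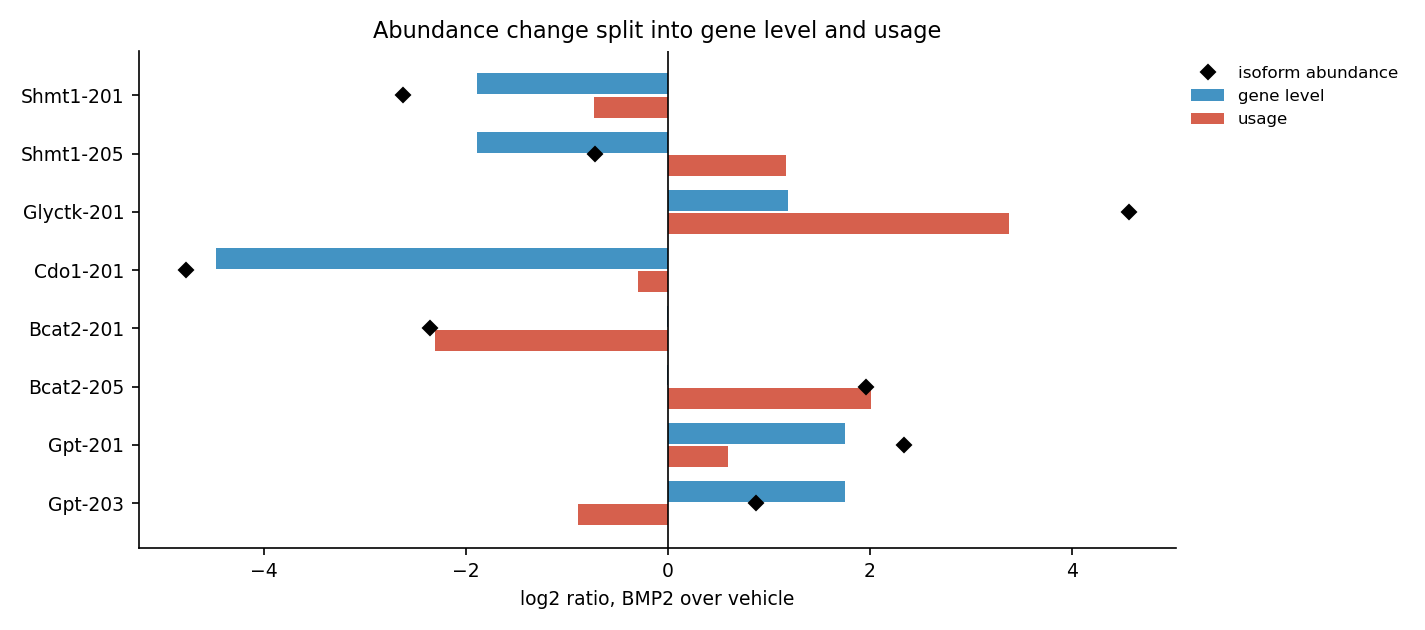
Log2 ratio of BMP2 over vehicle for 8 isoforms, split into the ratio of the gene's implied level (blue) and that of usage (red); diamonds are the ratio of the isoform's mean TPM, which lies within 0.035 of their sum. In Cdo1-201 the gene level carries most of the change, in the Bcat2 pair usage carries it, and in Shmt1-205 and Gpt-203 the bars point opposite ways.

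An isoform's abundance ratio can be split into a term for the gene's level and a term for the isoform's usage, which add on the log2 scale. The sum departed from the ratio of mean TPM by up to 0.035 in the Bcat2 pair, more than the rounding of the fractions allows, and by under 0.004 in the Shmt1 and Gpt pairs. For genes with 1 listed isoform the terms add by construction. For Cdo1-201 the level term was -4.47 and the usage term -0.30. For Bcat2-201 they were -0.01 and -2.30, and for Bcat2-205 -0.01 and 2.01. These genes stand at opposite ends, one almost wholly a difference in level and the other one in usage. In Shmt1-201 the level term of -1.89 and the usage term of -0.73 had the same sign, and in Gpt-201 the terms were 1.75 and 0.59. In Shmt1-205 the usage term of 1.17 was opposed to the level term and smaller. In Gpt-203 the usage term was -0.89, also opposed to the level and smaller. Glyctk-201 had 1.19 for the level and 3.37 for usage, with a vehicle fraction near 0.05 given to 3 decimals.

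**Figure D4:**
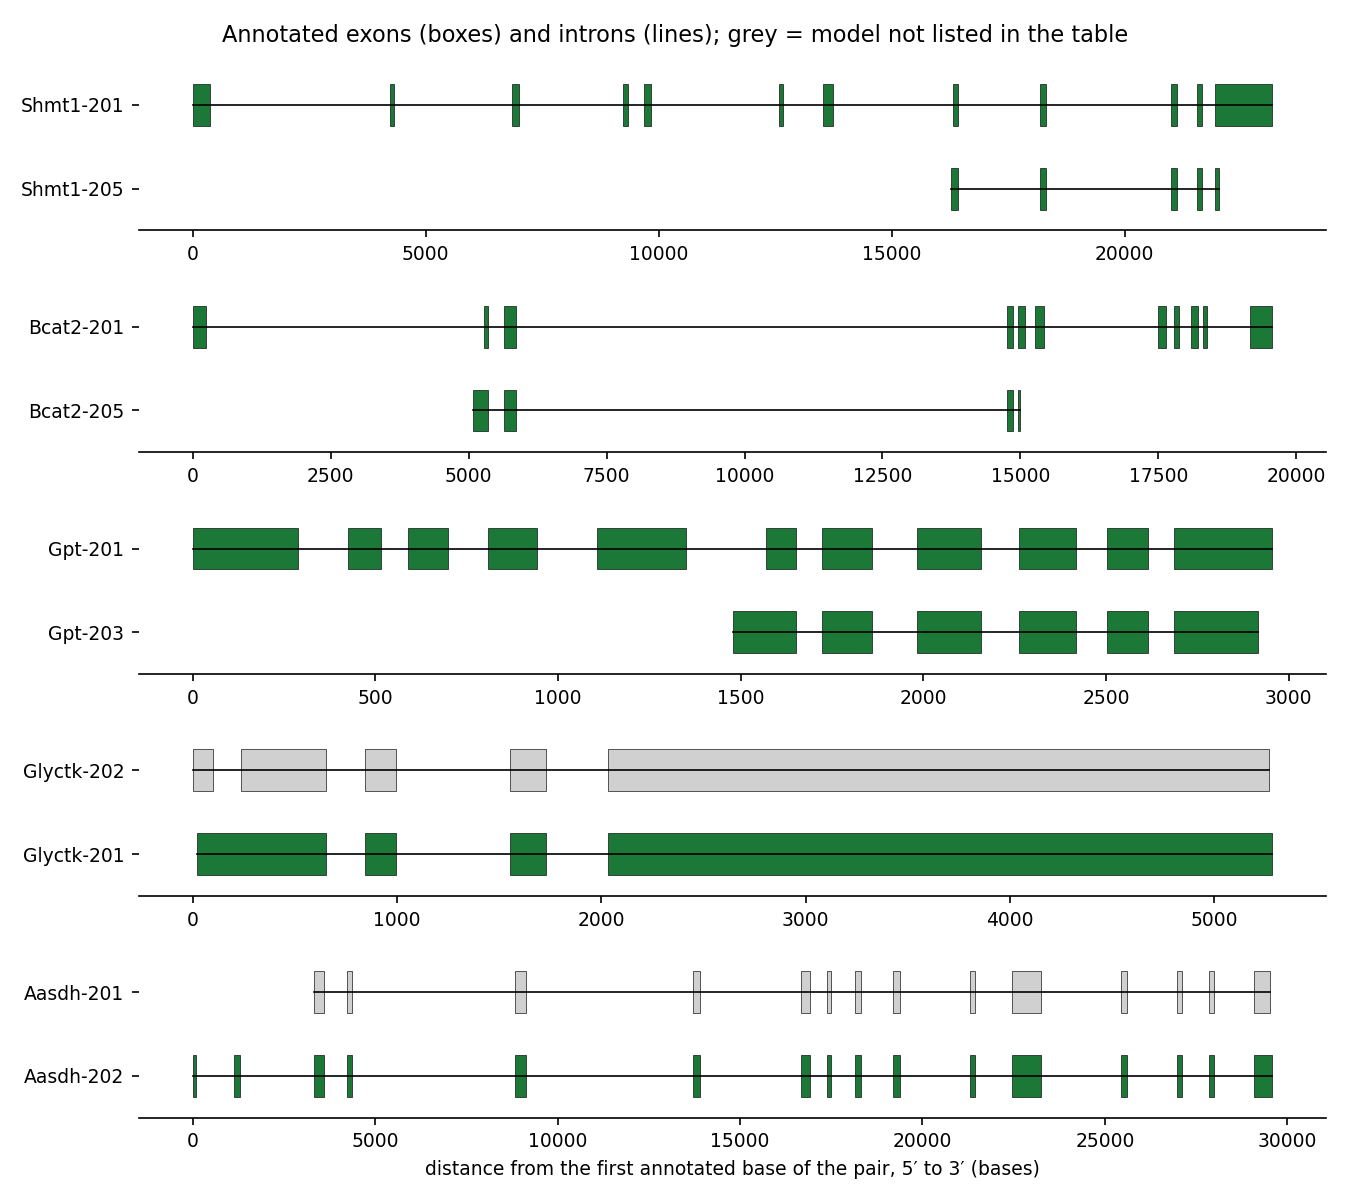
Annotated exons (boxes) and introns (lines) of the listed isoforms (green) of 5 genes, 5′ to 3′, by distance in bases from the first base of each pair; the unlisted partners Glyctk-202 and Aasdh-201 are grey. Shmt1-205, Bcat2-205 and Gpt-203 begin inside the longer model, at the front of exon 8, 2 and 6.

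A structural feature that had no part in choosing the genes recurred among them. It was not among the structural features planned in advance, and its definition may have been shaped by these same genes. Its share among them is therefore no independent count. In each of the 3 genes with 2 listed isoforms, Shmt1, Bcat2 and Gpt, the shorter isoform began in an intron of the longer and ran into the next exon, which it shared to the splice donor. Among the other 84 genes of the table in which an isoform that gained usage could be paired with one that lost it, the shorter isoform did so in 11, or 13.1%. With 3 genes, this is a description and no test was made. Its direction was not uniform, since the short isoform gained in Shmt1 and Bcat2 and lost in Gpt. In the 11 other genes it gained in 8 and lost in 3. Of the 9 listed isoforms, 7 are annotated as protein-coding and 2 as retaining an intron, and over the 297 isoforms of the table with an annotation match the shares were 79.1% and 9.09%.

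How far reads can tell these isoforms apart differs widely. kallisto assigns reads by short words of sequence, 31 bases long by default, and the labels do not state the authors' setting. Each isoform was therefore cut into 31-base words, and those found in no other GENCODE M21 transcript were counted, with both strands read as one. Shmt1-201 had 817 such words of 2828 (28.9%), Bcat2-205 had 131 of 602 (21.8%) and Shmt1-205 had 44 of 552 (7.97%). Cdo1-201 had 51 of 1565 (3.26%). The other 5 isoforms were each under 1%, with 12 words in Glyctk-201, 11 in Gpt-201, 1 in Aasdh-202, 1 in Bcat2-201 and 0 in Gpt-203. Of the 297 matched isoforms of the table, 68 (22.9%) were under 1%, and the median share was 7.01%, against 0.624% for the 9 isoforms here. An isoform without words of its own is estimated from the combination of transcripts its reads fit, and the part of this in the usage values was not tested. Shmt1 was the 1 gene here in which both exchanged isoforms had over 1% of words to themselves.

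**Figure D5:**
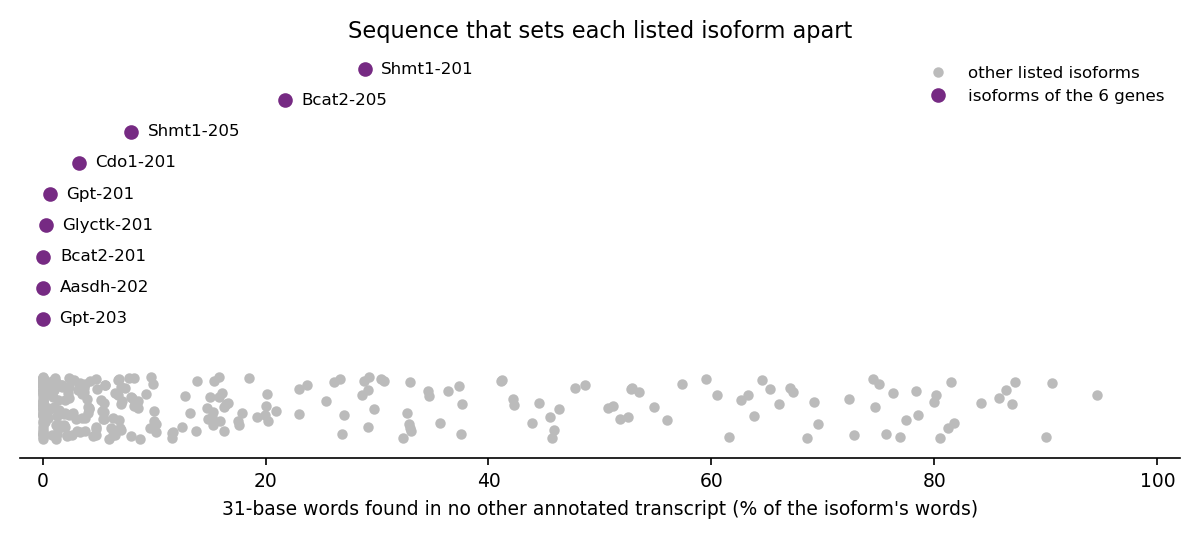
Share of each isoform's 31-base words that occurs in no other annotated transcript, in percent, for the 9 isoforms of the 6 genes (purple) and the other matched isoforms of the table (grey, spread vertically for legibility only). Shmt1-201, at 28.9%, and Bcat2-205, at 21.8%, stand highest of the 9, and 5 of the 9 lie under 1%.

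The rest of these pathways was looked for by name. The 6 lists of enzymes, for serine, glycine and one-carbon metabolism, for alanine, aspartate, glutamate and proline, for branched-chain amino acids, for cysteine and sulfur, for glycerate and glyoxylate, and for lysine and aminoadipate, hold 109 genes. Each list has 1 gene in the authors' deposited table, the one described above, and the other 103 genes have no entry and were not analysed here. Of the 109 names, 107 occur in GENCODE M21, and for the rest a missing entry says little. The lists were drawn up around these 6 genes, so their count is no evidence for the pathways. Within serine and one-carbon metabolism, for example, Shmt1 was the 1 entry of 32 genes, and the mitochondrial counterpart Shmt2 was not among the isoforms used here.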

How the data were processed

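RNA of 6 organoid libraries, 3 per condition, was measured by bulk sequencing. The submitters' processing notes name kallisto 0.46.1 as the quantifier and mm39 as the build. Isoform fractions, their difference (BMP2 minus vehicle) and q-values were deposited by the authors, per the file headers, under column names of IsoformSwitchAnalyzeR. TPM values are the authors' means per condition, per the file headers. The test behind the q-values, the filters, the annotation release and any use of strand are not stated in the labels or headers. Vehicle and BMP2 share a batch label in the deposited condition names.

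Usage is printed as 100 times the deposited fraction. Implied gene level is the summed TPM of the listed isoforms over their summed fraction. The 2 listed isoforms of Bcat2 gave levels 3.82% apart in vehicle and 3.89% in BMP2, and those of Shmt1 and Gpt at most 0.594%. Genes with 1 listed isoform allow no such check. On simulated tables for all 202 genes of this comparison, the implied log2 ratio was off by a median of 0.00102 and by at most 0.00487. The simulation holds only the rounding of the fractions, so errors in the data can be larger, as for Bcat2. Its fractions were drawn at random and not taken from the deposited ones, so it sets no limit for small fractions. For Glyctk in vehicle, at a fraction of 0.052, rounding alone leaves the level between 2.81 and 2.86 TPM. The 9 isoforms were matched by stable identifier to GENCODE M21 (GRCm38), whose versions are 1 step lower than those deposited, so exon boundaries may not be identical. Coordinates are 1-based, and none was converted. Named genes are the 6 members, genes of the pathway lists with an entry, and genes that overlap a member. For counts over the table, each gene's most gained and most lost isoforms were set side by side, and ends over 50 bases apart counted as different. Python 3.11.15 and pandas 2.3.3 were used. The genes, lists and tests were chosen with earlier results of these data known. Other settings tried were TPM shares, a q of 0.01, a usage difference over 0.2, a pseudocount of 1 in place of 0.1 TPM, a minimum level of 5 TPM and other tolerances.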

Additional observations from a re-analysis of the deposited data

How the results depend on the processing

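No paired analysis was possible because the values used here are means per condition, which carry no replicate number, and leaving out a replicate was not run for the same reason. At the stricter q of 0.01 (authors' deposited table), 7 of the 9 isoforms were left, both Gpt isoforms dropping out. With an absolute usage difference over 0.2, 7 were left as well, without Cdo1-201 and Gpt-203. Leaving out genes whose level is under 5 TPM in either condition lowered the number of genes over 2-fold apart from 4 to 2, Shmt1 and Gpt, because Cdo1 and Glyctk fall under that level in a condition. Shares of summed TPM and, as an alternative chosen after seeing the data, shares weighted by annotated length kept the direction of all 6 isoforms of Shmt1, Bcat2 and Gpt. A pseudocount of 1 TPM kept the direction of all 9 abundance ratios and the count of 7 that are over 2-fold apart. The level from the most used isoform alone kept the direction in all 5 genes. Depth per library is unknown, so the precision of low values, such as those of Aasdh-202, Glyctk-201 and, in BMP2, Cdo1-201, could not be derived.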
